A study of Arabidopsis thaliana with 12 samples.

Results

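Of 691 Arabidopsis thaliana genes with an array probe of their own, 61 lay at least 5 percentile points lower at high CO2 than at normal CO2 with every pair of high-CO2 samples below every normal-CO2 pair, and 53 of these, left after a fixed set of genes was removed, are described here. The 6 samples of the first group came from wild-type plants of the Columbia 0 ecotype kept for 6 d in 1% CO2, far above the level of air. The other 6 came from wild-type Columbia 0 plants in normal CO2, with the label 0 d. All 12 samples are total RNA, and the labels give neither the organ nor the age of the plants. All 1% CO2 samples are labelled 6 d and all others 0 d, so CO2 level and 6 d of growth cannot be told apart. The members were chosen by their own values: each probe was given its percentile rank among all 3439 probes of a sample (on a scale from 0 to 100, where tied probes share their average rank, so that the many probes listed at an intensity of 0 stand a few points above the bottom), neighbouring sample numbers (1 with 2, 3 with 4, 5 with 6) were averaged within each group, and a gene was kept where the highest of 3 high-CO2 pair means lay below the lowest of 3 normal-CO2 pair means with a group difference of at least 5 points. A gene was represented by its brightest single-gene probe.

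The fixed set left out holds 12 genes, of which 8 met the conditions (SBPASE, NTRC, SRX, CBL, SECE1, LPA19, AT1G03810 and AT1G64510) and 4 did not (PSBY, PSAN, PRK and AT1G24360). Because the differences between the groups chose the 53 genes, those differences are given as descriptions, with no test. The labels are silent on whether plants or cultures were separate, so the spread between samples may be technical.

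Most chloroplast proteins are encoded in the nucleus, made in the cytosol and imported, so the transcripts of their genes report on the dialogue between nucleus and plastid. High CO2 favours carboxylation by Rubisco over oxygenation, which lowers photorespiration, and it promotes stomatal closure and the build-up of sugars and starch. The names used here say little of most members: 46 of the 53 carry only a locus identifier, and no role is given to those without a name. A symbol was present for 7 (RALFL32, CSLA01, DAL1, PIFI, CML30, XERICO and LpxA), against 94 of all 691 genes. AT2G23070 has the further name CK2 alpha cp, a catalytic subunit of the protein kinase CK2 in the chloroplast. Words for a role in the names placed 1 member each in metabolism (CSLA01), photosynthesis (PIFI) and signalling (CML30), and 50 members in no group.

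Samples 5 and 6 stood apart from the rest of their groups. Across all probes, which are not independent, the correlation coefficient between high-CO2 samples 5 and 6 and the first 4 normal-CO2 samples was 0.906 to 0.921, and 0.846 to 0.873 with the first 4 of their own group, while normal-CO2 samples 5 and 6 reached only 0.808 to 0.814 with the first 4 of theirs. The median deposited intensity per sample ran from 0.174 to 0.390 in high-CO2 plants and from 0.160 to 0.256 in normal-CO2 plants, and each sample had 133 to 398 probes with an exact 0. The 8 photosynthesis genes used as a mark of green tissue had mean ranks from 65.3 to 99.6 in high-CO2 plants and from 68.8 to 99.6 in normal-CO2 plants, and they were not all level. SBPASE, itself one of the 8 left-out genes that met the conditions, stood at 70.8 in high-CO2 plants and 83.0 in normal-CO2 plants. CHLM stood at 65.3 in high-CO2 plants and 68.8 in normal-CO2 plants, and LHB1B2 at 97.7 in high-CO2 plants and 94.5 in normal-CO2 plants. Whole-tissue RNA cannot tell fewer cells of a type from less transcript per cell.

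The differences of the 53 genes ran from -38.1 to -6.31 percentile points with a median of -14.2, beside a median of -0.158 over all 691 genes. At least 10 points separated the group means of 37 members and at least 20 points those of 14. On the log2 scale after quantile normalization, which makes the intensity distributions of the samples equal, the median difference was -0.785, a level 0.580 times that in normal-CO2 plants, beside -0.0176 over all tested probes. It ran from -2.37 to -0.324, and 19 members were at 0.5 times the normal-CO2 level or less. The median member stood at rank 39.9 in high-CO2 plants and at 59.4 in normal-CO2 plants. Members were found among dim, middling and bright genes, as the plot of mean ranks shows.

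**Figure D1:**
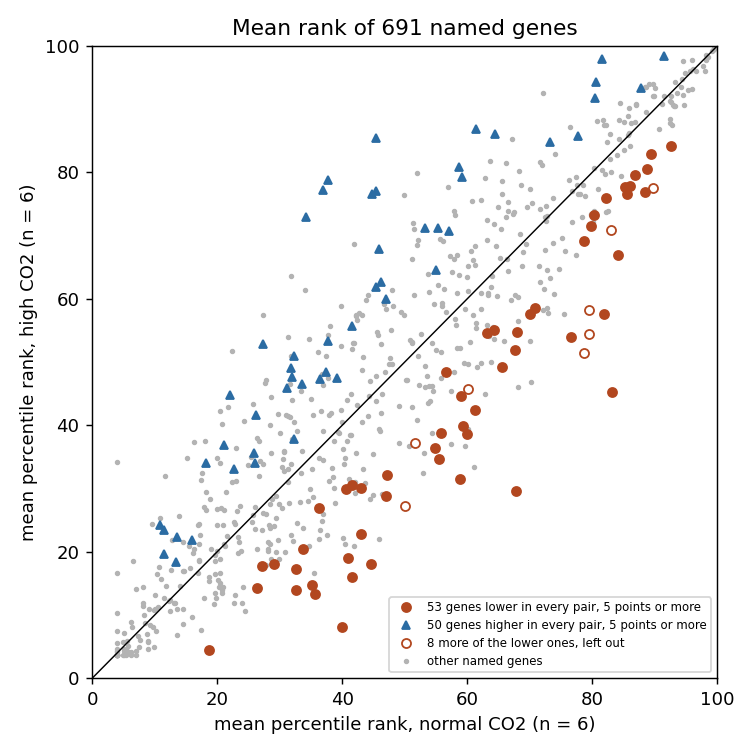
Mean percentile rank of each of 691 named genes in high-CO2 plants (vertical, n = 6) and in normal-CO2 plants (horizontal, n = 6), with the line of equal ranks. The 53 genes described (filled circles) lie 6.31 to 38.1 points below the line, the 8 left-out genes that met the same conditions are open circles, and the 50 genes higher in every pair (triangles) lie above it.

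AT1G62780 had the largest difference of all members. Its 6 ranks had a lowest value of 10.9, a median of 28.3 and a highest of 49.5 in high-CO2 plants, against 58.9, 65.7 and 77.9 in normal-CO2 plants. Pair means were 30.2, 21.8 and 36.9 in high-CO2 plants and 77.4, 65.7 and 60.0 in normal-CO2 plants, so the groups were 23.1 points apart at their nearest, the widest gap of the module. Normalized intensity was 0.131 ± 0.077 in high-CO2 plants and 0.446 ± 0.131 in normal-CO2 plants (SD, n = 6 each), a log2 difference of -1.92.

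AT2G26110 stood at a lowest rank of 4.71, a median of 57.8 and a highest of 64.3 in high-CO2 plants, against 80.5, 82.8 and 86.9 in normal-CO2 plants. All 6 high-CO2 samples were below all 6 normal-CO2 ones, but samples 5 and 6 were far lower than the other 4 in high-CO2 plants, with pair means of 58.6, 61.4 and 15.8, and sample 5 was listed at 0. Its difference of -37.8 points was -22.3 without samples 5 and 6 of both groups. AT4G16060 was near the bottom of the scale in high-CO2 plants, with ranks from 2.95 to 13.5 and 3 samples listed at 0, against 20.8 to 97.0 in normal-CO2 plants. The value of 97.0 belonged to normal-CO2 sample 3 alone, and the other 5 lay between 20.8 and 39.3. Without that sample its rank difference of -31.9 became -22.3 and its log2 difference of -2.37 became -1.53.

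AT2G23070, the plastid CK2 catalytic subunit, stood at ranks with a lowest of 3.01, a median of 38.1 and a highest of 51.2 in high-CO2 plants, against 48.3, 55.8 and 73.8 in normal-CO2 plants. The 2 groups overlapped in single samples, since high-CO2 sample 6 (51.2) exceeded normal-CO2 sample 1 (48.3), and high-CO2 sample 4 was listed at 0. Normalized intensity was 0.144 ± 0.095 in high-CO2 plants and 0.336 ± 0.108 in normal-CO2 plants (SD, n = 6 each), a log2 difference of -1.37. CK2 phosphorylates serine and threonine residues of many proteins, in the chloroplast among them parts of the transcription and RNA-processing machinery.

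In AT3G57630 all 6 high-CO2 samples lay below all 6 normal-CO2 ones. Its ranks kept between 52.4 and 60.7 in high-CO2 plants and between 76.8 and 88.1 in normal-CO2 plants. Normal-CO2 samples 5 and 6 (87.5 and 88.1) stood above the rest of that group (76.8 to 81.6). The difference of -24.2 points was -22.4 without samples 5 and 6 of both groups. All 3 high-CO2 pair means (56.6, 56.2 and 60.1) were at least 16.9 points under the nearest of the 3 in normal-CO2 plants (77.0, 80.7 and 87.8). Normalized intensity was 0.310 ± 0.034 in high-CO2 plants and 0.807 ± 0.242 in normal-CO2 plants (SD, n = 6 each). AT1G51350 had a median rank of 57.2 (29.7 to 69.0) in high-CO2 plants and of 75.0 (69.5 to 85.5) in normal-CO2 plants. Its high-CO2 samples were scattered, with pair means of 66.1, 38.6 and 57.2, and yet none reached the lowest normal-CO2 sample.

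In AT1G70180 and AT4G37230 normal-CO2 samples 5 and 6 stood above the other 4. AT1G70180 had pair means of 6.17, 18.2 and 29.9 in high-CO2 plants and 42.9, 33.8 and 57.1 in normal-CO2 plants. High-CO2 sample 2 of this gene was listed at 0. AT4G37230 had 17.9, 11.4 and 18.7 in high-CO2 plants and 26.7, 36.0 and 61.9 in normal-CO2 plants, and its difference of -25.5 points was -16.7 without samples 5 and 6 of both groups. AT2G39000 showed the same shape more strongly, with pair means of 13.9, 18.6 and 7.52 in high-CO2 plants and 19.2, 30.0 and 57.5 in normal-CO2 plants, and its difference of -22.2 points was -8.33 without those samples.

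The other members among the 15 with the largest differences had group differences from -21.9 to -19.5 points. AT4G05030 had ranks from 10.4 to 33.9 in high-CO2 plants and from 30.8 to 52.2 in normal-CO2 plants. AT4G33480 ran from 17.5 to 47.0 in high-CO2 plants and from 46.7 to 66.6 in normal-CO2 plants, and AT2G13690 from 13.3 to 36.2 in high-CO2 plants and from 34.3 to 58.3 in normal-CO2 plants. In these 3 genes the ranges of the groups overlapped by less than 4 points. AT2G34050 ran from 22.8 to 55.8 in high-CO2 plants and from 47.6 to 74.6 in normal-CO2 plants. AT2G44530 was listed at 0 in 2 high-CO2 samples, and its pair means of 5.21, 6.00 and 33.0 in high-CO2 plants came within 0.102 points of those in normal-CO2 plants (33.2, 33.1 and 39.0). AT5G06990 rested most on single samples: high-CO2 sample 1 was at 3.43, listed at 0, and its partner, sample 2, at 81.7, above all 6 normal-CO2 samples (43.5 to 72.0). Its difference of -21.4 points was -8.31 without the first of these and -34.4 without the second.

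**Figure D2:**
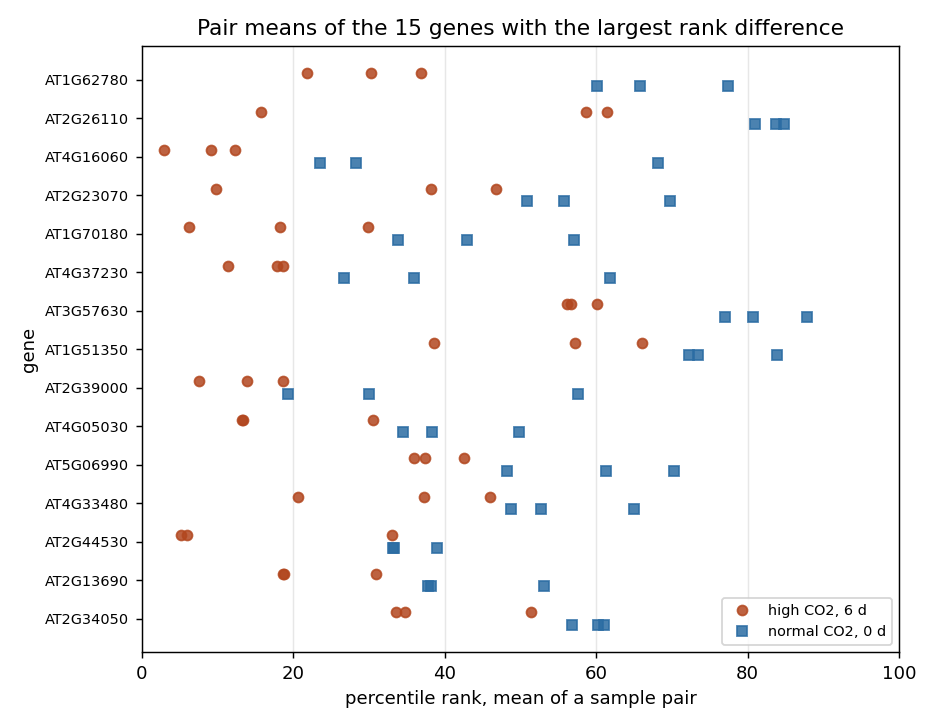
Pair means of percentile rank for the 15 genes with the largest rank difference, 3 in high-CO2 plants (circles) and 3 in normal-CO2 plants (squares) per gene. AT1G62780 has the widest gap between the groups (23.1 points), and AT2G44530 nearly closes it (0.102 points).

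RALFL32, one of the 7 members with a symbol, belongs to the RALF-like secreted peptides, which signal through receptor kinases at the cell surface. Its ranks had a lowest of 23.3, a median of 39.7 and a highest of 49.5 in high-CO2 plants, against 48.4, 57.3 and 62.6 in normal-CO2 plants. High-CO2 sample 1 (49.5) was the one sample to reach into the normal-CO2 range, and the log2 difference was -0.761. CSLA01, a cellulose synthase-like protein of the family that makes mannan backbones of the cell wall, had pair means of 63.9, 59.1 and 49.8 in high-CO2 plants and 64.0, 73.0 and 72.9 in normal-CO2 plants. Its first pairs were level, at 0.160 points apart, and its difference of -12.4 points was -7.06 without samples 5 and 6 of both groups.

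PIFI, required for the post-illumination rise of chlorophyll fluorescence that accompanies electron flow into the plastoquinone pool in the dark, was dim. Its ranks had a lowest of 8.44, a median of 22.2 and a highest of 23.8 in high-CO2 plants, against 16.5, 30.6 and 34.7 in normal-CO2 plants. Normal-CO2 sample 6 (16.5) lay inside the high-CO2 range, and the other 5 (29.4 to 34.7) lay above it. DAL1, which had no match among the RefSeq genes, ran from 12.6 to 49.1 in high-CO2 plants and from 37.8 to 47.7 in normal-CO2 plants, so that 1 group enclosed the other. Its difference of -11.2 points was -5.95 without high-CO2 sample 3, and -6.89 where sample 6 was left out.

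XERICO, CML30 and LpxA were bright in both groups. XERICO is a RING zinc-finger protein that raises abscisic acid content when it is overproduced. Its ranks had a lowest of 80.1, a median of 82.0 and a highest of 90.5 in high-CO2 plants, against 92.0, 92.5 and 93.1 in normal-CO2 plants. Normalized intensity was 0.934 ± 0.320 in high-CO2 plants and 1.79 ± 0.092 in normal-CO2 plants (SD, n = 6 each), 0.50 times by the means of log2 values, with no overlap between samples. High-CO2 samples 1 and 2 (89.5 and 90.5) were closest to the normal-CO2 level and samples 3 to 6 lay between 80.1 and 82.9, so samples 5 and 6 did not stand apart here.

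CML30, a calmodulin-like protein of the calcium-binding EF-hand family, ran from 71.6 to 80.7 in high-CO2 plants and from 81.5 to 92.3 in normal-CO2 plants. Its normal-CO2 pair of samples 5 and 6 averaged 91.3 beside 83.3 and 82.3 for the other pairs, and the difference of -9.08 points was -4.60 without samples 5 and 6 of both groups. LpxA, named after the acyltransferase that opens lipid A synthesis in Escherichia coli, ran from 73.4 to 80.3 in high-CO2 plants and from 80.6 to 87.3 in normal-CO2 plants. Normalized intensity of LpxA was 0.620 ± 0.063 in high-CO2 plants and 0.944 ± 0.136 in normal-CO2 plants (SD, n = 6 each).

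The level of a gene set how a difference in rank read as a fold. Of the 13 members above rank 80 in normal-CO2 plants, of 97 genes at that level, the median difference was -8.32 points and -0.742 on the log2 scale. In the 29 members between ranks 40 and 80, of 289 genes, it was -16.4 points and -0.733. In the 11 members under rank 40, of 305 genes, it was -14.2 points and -0.984. A difference of few points at the top of the scale was thus about as large a fold as one of many points in its middle. All 6 high-CO2 samples lay below all 6 normal-CO2 samples in 20 of the 53 members (4.65% of all probes did so), namely 10 of the 13 brightest, 8 of the 29 and 2 of the 11. The share of all probes without overlap was not taken at each level, so this split is not read as a trait of bright members. AT1G79220 ran from 71.4 to 82.9 in high-CO2 plants and from 87.8 to 89.4 in normal-CO2 plants, and AT2G47360 from 78.2 to 87.8 in high-CO2 plants and from 88.7 to 90.4 in normal-CO2 plants. AT2G39360 ran from 77.1 to 81.3 in high-CO2 plants and from 85.6 to 88.5 in normal-CO2 plants.

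**Figure D3:**
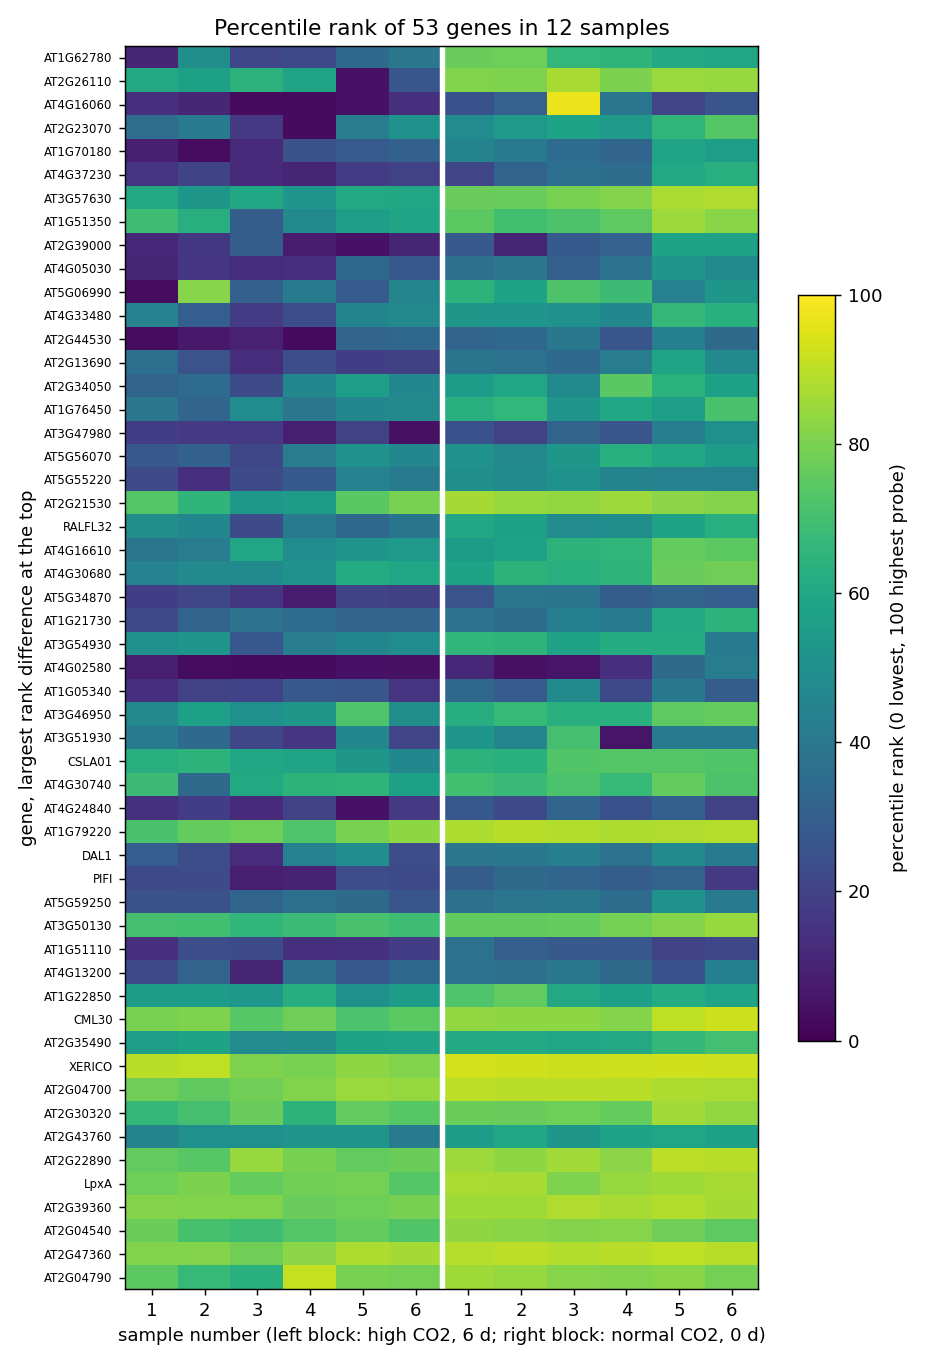
Percentile rank of the 53 genes (rows, largest difference at the top) in 6 high-CO2 samples (left block) and 6 normal-CO2 samples (right block), from 0 (dark) to 100 (bright). Single samples out of keeping with their partners show as isolated cells, such as AT4G16060 in normal-CO2 sample 3 (97.0) and AT5G06990 in high-CO2 sample 2 (81.7).

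Across the module the 3 pairs of a group were not equal. The median member stood at ranks 40.9, 35.9 and 46.8 in the high-CO2 pairs 1-2, 3-4 and 5-6, and at 58.3, 59.8 and 61.9 in the same pairs in normal-CO2 plants. High-CO2 samples 5 and 6 were the highest high-CO2 pair in 25 members and normal-CO2 samples 5 and 6 the highest normal-CO2 pair in 30. A pair of samples 5 and 6 bordered the gap between the groups in 30 of the 53 members. The highest high-CO2 pair was 1-2, 3-4 or 5-6 in 18, 10 and 25 members. The lowest normal-CO2 pair was 1-2, 3-4 or 5-6 in 22, 18 and 13. With 3 pairs in each group any pair number borders many gaps, so the count of 30 is not read as particular to samples 5 and 6. Without samples 5 and 6 of both groups the median difference over the 53 genes was -12.9 points. Differences then grew in 25 members and shrank in 28, and 9 shrank by more than 1.5 times: AT2G26110, AT4G37230, AT2G39000, AT2G13690, AT3G47980, AT1G21730, AT4G02580, CSLA01 and CML30. The same conditions asked of samples 1 to 4 alone were met by 163 genes, with 51 of the 53 among them. AT4G02580 (-4.41) and CML30 (-4.60) fell under 5 points. Fewer pairs are easier to separate, and members with separate pair means keep them when a pair is dropped. In the limma fit given below, called probes also rose without samples 5 and 6 of both groups, from 233 to 662 lower and from 185 to 608 higher. What raised the counts was not tested, and nothing about samples 5 and 6 is read from them.

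Partner samples differed by a median of 3.55 points over the members, beside 2.91 points over all probes. Partners differed most in high-CO2 samples 3 and 4 (median 5.56 points) and least in normal-CO2 samples 1 and 2 (2.30 points). Leaving out 1 sample moved the rank difference by more than 1.5 times in 6 members. Besides AT5G06990 and DAL1, AT3G51930 was at -2.01 without normal-CO2 sample 3, -23.7 without normal-CO2 sample 4 and -8.52 without high-CO2 sample 6, instead of -12.8. AT2G04790 was at -1.71 without high-CO2 sample 3, and -10.9 where sample 4 was left out, instead of -6.31. AT4G30740 was at -6.58 without high-CO2 sample 2, instead of -12.3, and AT4G13200 at -4.96 without high-CO2 sample 3, instead of -9.30.

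At the lower end of the scale, 11 members were listed at 0 in at least 1 sample, 10 of them in high-CO2 plants and 2 in normal-CO2 plants, with AT4G02580 in both. AT4G02580 was the extreme, listed at 0 in 5 high-CO2 and 2 normal-CO2 samples. Pair means were 5.98, 2.98 and 4.57 in high-CO2 plants and 8.06, 9.72 and 38.5 in normal-CO2 plants, so its difference of -14.2 points came largely from normal-CO2 samples 5 and 6 and was -4.41 without samples 5 and 6 of both groups. AT3G47980 and AT4G24840 were each listed at 0 in 1 high-CO2 sample, with mean ranks of 13.9 and 14.3 in high-CO2 plants and of 32.6 and 26.3 in normal-CO2 plants. AT3G51930 was listed at 0 in normal-CO2 sample 4 and ran from 16 to 46.7 in high-CO2 plants and from 5.51 to 70.5 in normal-CO2 plants.

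Near the thresholds small amounts set the choice. AT2G04790, AT2G47360 and AT2G04540 had the smallest differences inside, at -6.31, -6.48 and -7.02 points. Of the 7 genes with separate pair means and a smaller difference than 5 points, AT3G26580 (-4.63), AT4G39690 (-4.02) and AT1G21660 (-4.0) came nearest. By the gap between nearest pair means, AT1G21730 and AT3G54930 were inside by 0.0436 points and AT2G44530 by 0.102. Of the 139 genes with a large enough difference and overlapping pair means, AT4G29890, AT3G12930 and AT1G12100 missed by 0.364, 1.06 and 1.15 points. In 9 members the gap was under 1 point and in 17 at least 5 points, with a median of 3.29. The median distance between partners, 3.55 points, was thus larger than the median gap.

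The same conditions were met by 310 of all 3439 probes, named or not (9.01%), and in the opposite direction by 234 (6.8%). Among the 691 genes the shares were 8.83% lower and 7.24% higher. In the limma fit across 3349 probes over 12 samples, 25 of the 53 members passed as lower after Benjamini-Hochberg adjustment, where 6.96% of tested probes did so. Nothing is read from this count or from that of samples without overlap, because the conditions that chose the members used the same contrast. With pair means in place of 12 samples, 0 members and 0 probes passed in limma, while 408 probes had an unadjusted p under 0.05.

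How far the members lay below their normal-CO2 level depended on the scaling. With intensities as deposited the median probe stood 0.449 higher on the log2 scale in high-CO2 plants and the median member 0.315 lower. Members then numbered 46 with a negative and 7 with a positive difference. The 7 were AT2G43760 (0.197), AT5G59250 (0.145), AT2G35490 (0.144), AT3G51930 (0.131), AT4G13200 (0.085), AT1G22850 (0.036) and DAL1 (0.0112). Relative to the median probe each of these 7 was still lower. After median scaling all 53 differences were negative with a median of -0.932, beside -0.0806 for the median probe. These scalings keep the order of probes within a sample, on which the ranks rest.

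**Figure D4:**
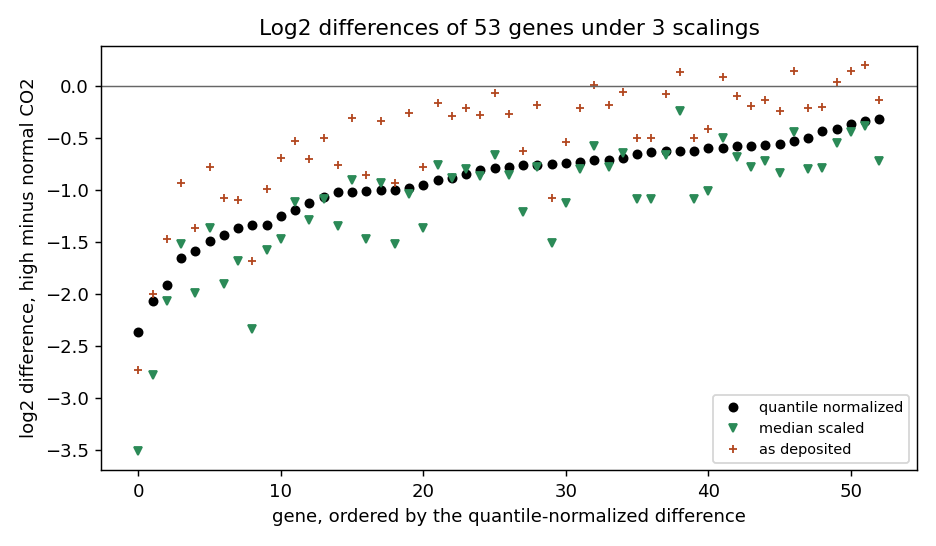
Log2 difference between high and normal CO2 of each of the 53 genes, ordered by the quantile-normalized value, under 3 scalings: quantile normalized (circles), median scaled (triangles) and as deposited (crosses). All circles and triangles lie below 0, and 7 crosses lie above it.

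The members were unevenly placed on the chromosomes of their loci. Chromosome 2 held 18 of the 53, or 14.6% of its 123 measured genes, and chromosome 4 held 13, or 10.8% of 120. Chromosomes 1, 3 and 5 held 9, 7 and 5 members, which are 5.20%, 5.38% and 3.50% of their 173, 130 and 143 measured genes. Of the 8 left-out genes that met the conditions, 4 lie on chromosome 1, 2 on chromosome 3 and 1 each on chromosomes 2 and 4. With these counted, the shares were 7.51%, 15.4%, 6.92%, 11.7% and 3.50% on chromosomes 1 to 5, beside 8.83% of all 691 genes. The mirrored set of genes higher in every high-CO2 pair, to which no left-out gene belonged, had 8 on chromosome 2, 2 on chromosome 4 and 16 on chromosome 5. Of the 16 members with differences under 10 points, 11 lay on chromosome 2, among them XERICO, CML30 and AT2G04700. Of the 37 members with differences of at least 10 points, 7 lay on chromosome 2, which holds 17.8% of the 691 genes.

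Over all measured genes of a chromosome the medians leaned the same way. The median rank difference was -1.28 points on chromosome 2 and -3.51 on chromosome 4, against 0.916, 1.51 and 2.58 on chromosomes 1, 3 and 5. This lean was larger in samples 5 and 6, with -5.12 and -7.35 points on chromosomes 2 and 4 and 2.14, 2.62 and 2.73 on the others, than in samples 1 to 4, with -0.465 and -1.76 against 0.222, 0.116 and 0.894. Genes of chromosomes 2 and 4 were also brighter, with median normal-CO2 ranks of 52.3 and 54.4 against 40.4, 41.8 and 38.0. The part of brightness or of single samples in the placement was not tested. A few members were near neighbours among protein-coding genes: CSLA01 and AT4G16610 had 1 gene between them, AT2G04700 and AT2G04790 had 3, and AT4G30680 and AT4G30740 had 5.

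**Figure D5:**
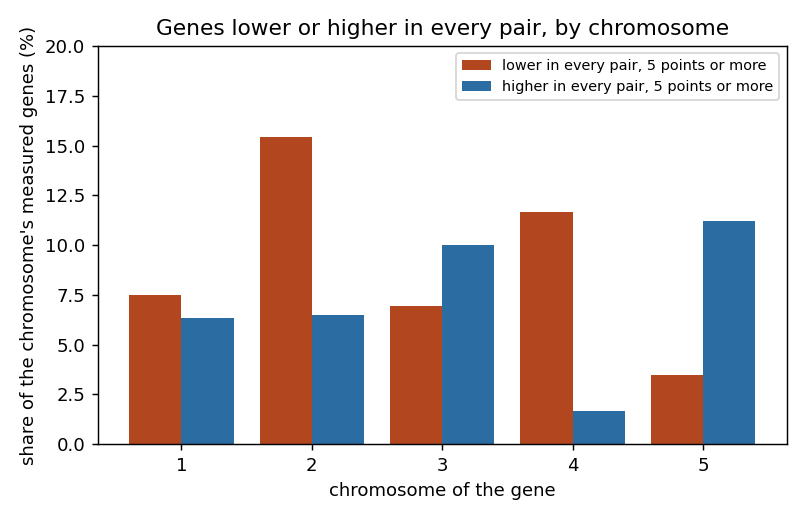
Share of each chromosome's measured genes (percent) that met the conditions as lower (left bars, those of the 61 genes with a chromosome, left-out ones included) or as higher in every high-CO2 pair (right bars, 50 genes). Chromosomes 2 and 4 have the tallest left bars (15.4% and 11.7%), and chromosome 4 has the shortest right bar (1.67%).

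The 50 genes higher in every high-CO2 pair, found with the same conditions turned round, had a median difference of 15.1 points and a largest one of 41. None of the left-out genes is among them, so the like set is all 61 genes that met the conditions as lower, whose median difference was -14.4 points and largest one -38.1. The median rank at high CO2 was 44.6 for the 61 genes, 57.8 for the 50 and 45.9 for all 691. In normal-CO2 plants it was 60.2 for the 61, 37.7 for the 50 and 44.1 for all. Each set was chosen by these values, so the contrast between them describes the choice.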

How the data were processed

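The table holds the deposited intensities of 3439 probes in 12 samples on what the values show to be a linear scale, with no negative value, exact zeros and a shared maximum close to 100. How the authors made these intensities (array type, scanner, background correction, normalization) is not given in the sources used here. Groups and sample numbers come from the labels. Probes were named through a platform annotation dated 2016: 692 probes had 1 gene, for 691 genes, of which 2 had no match in the RefSeq gene table, assembly TAIR10.1, used for names, chromosomes and gene order. The brightest probe had the highest mean deposited intensity. The members, lists, level classes and thresholds were chosen with earlier results of these data known.

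Percentile ranks were computed on deposited values with average ties (Python 3.11.15, pandas 2.3.3). For log2 differences, intensities were quantile normalized (limma 3.58.1, R 4.3.3), zeros were kept at 0, values under 0.0398 were raised to it (12.5% of probes in a sample) before taking log2, so folds of dim probes are understated. 17 members had a sample at this floor. lmFit and eBayes were fitted with group as the only term to 3349 probes above the floor in at least 1 sample, with Benjamini-Hochberg adjustment at 0.05. The fit and the selection were tried on simulated data with independent samples. Those trials do not cover the likeness of partner samples in the real data. For arrays, the number of samples limits precision. Genes described in detail are the 15 with the largest rank differences, those with a role word, those nearest the thresholds, those listed at 0 and those that changed sign with a scaling. Members with a symbol, those moved by 1 sample and some bright members were added with values known. Planned sequence descriptions were not made, since no sequences were used here.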

Additional observations from a re-analysis of the deposited data

Results flagged for a closer look

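Of 106 groups of 6 samples (53 members, 2 groups each), 8 had a lowest or highest sample whose gap to the nearest other exceeded Dixon's critical share of the group's whole range for 6 samples, in percentile rank. Chance flags about 1 in 20 groups of independent values, and partner samples here are alike. For AT4G16060 the rank of normal-CO2 sample 3 was 97.0, beside 20.8 to 39.3 in the rest of that group (share 0.757). For PIFI the rank of normal-CO2 sample 6 was 16.5, beside 29.4 to 34.7 in the rest of that group (0.707). For AT4G02580 the rank of high-CO2 sample 1 was 8.5, beside 3.0 to 4.7 in the rest of that group, all listed at 0 (0.684). For AT3G54930 the rank of normal-CO2 sample 6 was 41.1, beside 57.8 to 65.7 in the rest of that group (0.677). For AT4G30740 the rank of high-CO2 sample 2 was 34.4, beside 57 to 68.6 in the rest of that group (0.661). For AT5G59250 the rank of normal-CO2 sample 5 was 50.9, beside 35.5 to 41 in the rest of that group (0.646). For AT1G21730 the rank of high-CO2 sample 1 was 21.9, beside 32.3 to 38.2 in the rest of that group (0.637). For AT3G46950 the rank of high-CO2 sample 5 was 72.5, beside 47.1 to 56.6 in the rest of that group (0.627).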

How the results depend on the processing

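The 53 genes numbered 54 (50 shared) with ranks over single-gene probes, 37 with a least difference of 10 points, 20 when all 6 samples had to lie below all 6, and 163 (51 shared) without samples 5 and 6 of both groups. Leaving out 1 sample gave 50 to 57 genes. Same-numbered samples of the groups did not deviate together (correlations from -0.0784 to 0.158), so the numbers were not taken as pairs. With each high-CO2 pair set against the same-numbered normal-CO2 pair only, a replicate block added after seeing the data, 98 genes qualified. The replicate block in limma was a different, planned setting that gave each sample number its own term. With it limma called 26 members, 238 lower and 222 higher probes, against 25, 233 and 185 without it. Probes lower and higher were 65 and 326 as deposited (5 members lower), 246 and 85 after median scaling, and 662 and 608 without samples 5 and 6 of both groups. They were 0 and 0, with 0 members, both over means of pairs and with pairs as a random block (408 and 511 probes at an unadjusted p under 0.05). Leaving out 1 sample gave 140 to 316 lower probes, 90 to 264 higher probes and 17 to 29 members. The number of lower probes came to 141, 140 and 143 on leaving out sample 2, 3 or 4 of the high-CO2 group, higher probes to 90 to 108 without any 1 of high-CO2 samples 1 to 4 and normal-CO2 sample 5, and members numbered 17 without high-CO2 sample 4 and without normal-CO2 sample 5. The median log2 difference of the members was -0.315 as deposited, and from -0.848 to -0.756 with 1 sample left out. Signs of single members turned in 7 of 901 alternatives, all with values as deposited: AT3G51930 at 0.131, DAL1 at 0.0112, AT5G59250 at 0.145, AT4G13200 at 0.085, AT1G22850 at 0.036, AT2G35490 at 0.144 and AT2G43760 at 0.197. The cause was not tested. Signal near the floor limits what can be said of dim members.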
